A study of Homo sapiens with 6 samples.

Results

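The 10 NF-kB genes and chemokine targets described here were listed by name: the subunit genes RELA, RELB, NFKB1 and NFKB2, the inhibitors NFKBIA and TNFAIP3, the survival gene BIRC3, and the chemokine genes CXCL1, CXCL2 and CXCL8. They are 10 of the 56303 gene symbols in the deposited count table, and 9 of them had enough counts to be tested among 18243 genes, with CXCL2 as the exception. mRNA was sequenced from SW480 cells, a line established from a human colon adenocarcinoma, in 3 libraries with a non-silencing hairpin (shCtrl, genotype labelled WT) and 3 with a hairpin against RBM39 (shRBM39, genotype labelled RBM39 knockdown). Both groups carried a lentiviral hairpin and were grown with serum and antibiotics, with no cytokine or other inflammatory stimulus named. The study's methods describe stable clonal lines selected with puromycin, so differences between the lines themselves and the knockdown cannot be told apart. The methods speak of 3 replicate experiments per group, and the labels do not say whether these were separate cultures. If they were not, p-values measure only the spread between these samples, which may be technical.

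NF-kB is a family of transcription factors that switch on genes of inflammation and cell survival. Its subunits pair with each other and are held in the cytoplasm by inhibitors of the IkB type until receptors of the TNF, interleukin-1 and Toll-like families activate the IkB kinases, which mark the inhibitors for degradation. Freed NF-kB then raises its own inhibitors, survival factors and chemokines, which attract neutrophils and are known as products of colon cancer cells under inflammatory signals. RBM39, an RNA-binding protein, acts in pre-mRNA splicing and as a co-regulator of transcription. The data bear on how the mRNA of NF-kB genes and targets differed after RBM39 knockdown.

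The kappa B site, the DNA stretch bound by NF-kB, was looked for in promoter windows from RefSeq (GRCh38.p14), which span each annotated start, to show where the targets carry its letters. Of the 10 genes, 9 had a window, 13 windows in all. A wide form of its letters, GGG and CC with any 5 bases between them, was found on either strand in all 13 of them. It was also found in 58.7% of the 35116 windows of all genes, so a match is common among promoters. The difference between these shares was not tested. The narrow form GGNNTTTCC, added after the windows had been read, was found in 9 of the 13 windows and in 6.26% of all windows. The 2 forms overlap: a narrow match preceded by a further G is also a wide match. The stretches below show the narrow form in capitals, on either strand, for the inhibitor, survival and chemokine genes, read 5′ to 3′ in the sense of each gene.
TNFAIP3, chr6:137867189-137867218, plus strand: tttGGAAAGTCCcgtGGAAATCCCcgggcc
BIRC3, chr11:102317255-102317314, plus strand: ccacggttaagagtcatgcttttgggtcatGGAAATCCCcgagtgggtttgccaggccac
NFKBIA, chr14:35404801-35404860, minus strand: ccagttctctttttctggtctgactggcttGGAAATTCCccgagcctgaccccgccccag
CXCL1, chr4:73869310-73869369, plus strand: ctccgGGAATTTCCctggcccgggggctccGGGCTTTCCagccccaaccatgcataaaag
CXCL2, chr4:74099246-74099275, minus strand: ccgGGAATTTCCctggcccgggactccggg
CXCL8, chr4:73740475-73740504, plus strand: cgtGGAATTTCCtctgacataatgaaaaga

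Distances are counted from the RefSeq start on which each window is built. This start is not always the end of the gene range of the count table, printed with each gene here, and the stretches of TNFAIP3 and CXCL2 lie inside those ranges. The match nearest to the RefSeq start began 55 bases upstream in TNFAIP3, 199 in BIRC3, 81 in NFKBIA, 53 in CXCL1 and CXCL2, and 91 in CXCL8. NFKB1 and NFKB2 also had a window with the narrow form, and RELA had none in its windows. Among the 24 other target genes of the pathway with a window, 13 had it. These letters describe the sequence and do not show that NF-kB was bound there.

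The libraries held from 18042924 to 20428901 counts, and all replicate pairs of a group differed by more than the sampling noise of counts (chi-square over its degrees of freedom, 2.11 to 4.21). RBM39 itself had 8894, 9504 and 8831 counts in shCtrl and 5211, 4743 and 5662 in shRBM39, a log2 difference (shRBM39 over shCtrl, scaled by TMM) of -0.67, with a standard error (SE) of 0.04 and a Benjamini-Hochberg adjusted p of 1.24e-16 in the edgeR quasi-likelihood test. All 7 colon epithelium markers on the list (EPCAM, KRT8, KRT18, KRT19, KRT20, CDX2 and VIL1) were detected, with a summed level of 2664 to 2816 RPKM (reads scaled to gene length and library size) in shCtrl and 2973 to 3073 in shRBM39. Of the 7, 3 were called higher (KRT8 at 0.43, KRT18 at 0.24 and KRT20 at 1.82 on the log2 scale), 2 lower (CDX2 at -2.13 and VIL1 at -0.09), and EPCAM and KRT19 were not called. The 6 leukocyte markers summed to 0.131 to 0.362 RPKM in shCtrl and 0.0686 to 0.164 in shRBM39, with PTPRC and FCGR3A at 0 counts in every library. The 6 fibroblast markers summed to 2.31 to 2.69 RPKM and 2.51 to 2.81, with COL1A2, COL3A1 and DCN at 3 counts or fewer per library. Of the 3 that could be tested, COL1A1 was called higher at 0.81, and LUM at -0.08 and PDGFRB at 0.22 were not called. The 4 endothelial markers summed to 0.44 to 0.597 RPKM and 0.761 to 0.93, with KDR at 0, and the 2 tested ones, PECAM1 at 0.79 and VWF at 1.39, were both called higher. Beside these calls, 59.1% of all tested genes were called, 29.2% as higher and 29.9% as lower. The part of these markers in the results was not tested. In bulk RNA, fewer cells of a type and less RNA per cell cannot be told apart.

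In the SW480 control cells, the most abundant of the 10 mRNAs was that of RELA, which encodes the transactivating subunit p65. By RPKM, a level per gene length, the order in shCtrl was RELA at 33.5 ± 1.68 (SD, n = 3), NFKBIA at 8.53 ± 0.403, NFKB2 at 6.9 ± 0.524, NFKB1 at 2.37 ± 0.0896, TNFAIP3 at 2.22 ± 0.185, RELB at 1.18 ± 0.116, BIRC3 at 0.669 ± 0.0592, CXCL8 at 0.461 ± 0.031, CXCL1 at 0.273 ± 0.17 and CXCL2 at 0.111 ± 0.137. The library values of NFKB1 and TNFAIP3 overlapped, as did those of CXCL1 and CXCL2, and the other neighbours in this order were apart. In shRBM39 the order was RELA, NFKBIA, NFKB2, NFKB1, RELB, TNFAIP3, CXCL8, CXCL1, BIRC3 and CXCL2. TNFAIP3 thus stood below RELB and BIRC3 below CXCL8 and CXCL1 in the knockdown libraries, and only CXCL8 and CXCL1 overlapped as neighbours there.

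Between the groups, the negative regulator TNFAIP3 and the survival gene BIRC3 fell by 63.4% and 58.3% in shRBM39, NFKB2 and RELA fell by small amounts, and the other 5 tested genes did not pass the test. In all, 4 of the 9 tested genes had an adjusted p under 0.05 (edgeR quasi-likelihood test), all of them lower in shRBM39. Over all 18243 tested genes, 59.1% were called, 29.9% as lower and 29.2% as higher, so the share called among these genes was not above that background. A decrease of at least 2-fold with an adjusted p under 0.05 was found for 2 of the 9, TNFAIP3 and BIRC3, and for 4.16% of all tested genes. The median log2 difference of the 9 was -0.02, beside -0.01 over all tested genes. No member was called as higher by edgeR, DESeq2 called 0 as well, and 1 (CXCL1) had an unadjusted p under 0.05.

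**Figure D1:**
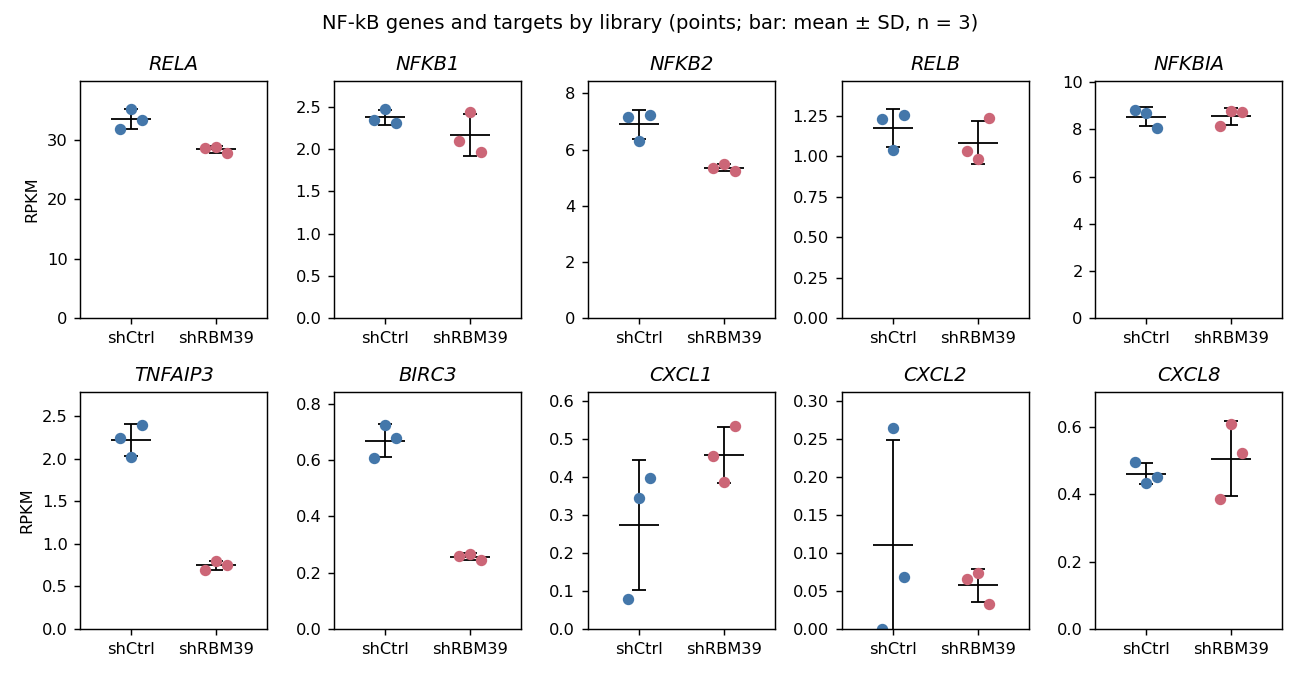
RPKM (vertical axes, each from 0) of the 10 NF-kB genes and targets in the 3 shCtrl and 3 shRBM39 libraries; points are libraries and bars the mean ± SD. The groups stand apart for RELA, NFKB2, TNFAIP3 and BIRC3 and overlap in RPKM for the other 6 genes.

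TNFAIP3 (chromosome 6, 137867188 to 137883312, GRCh38) encodes A20, a ubiquitin-editing enzyme that shuts off NF-kB signalling and is itself an NF-kB target. It had 221, 207 and 235 counts in the shCtrl libraries and 71, 73 and 77 in the shRBM39 libraries, which is 2.24, 2.03 and 2.39 RPKM against 0.688, 0.801 and 0.753 RPKM. Every knockdown library lay below every control library by a wide margin. The log2 difference of TNFAIP3 was -1.45 (SE 0.11, adjusted p by edgeR 3.06e-13), a level 2.73-fold lower in shRBM39. In order of log2 difference it was number 265 from the lowest of the 18243 tested genes.

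BIRC3 (chromosome 11, 102317450 to 102339403) encodes cIAP2, a ubiquitin ligase at TNF receptors that blocks cell death and is a classical NF-kB target. It had 89, 110 and 99 counts in shCtrl and 40, 36 and 37 in shRBM39, which is 0.606, 0.723 and 0.678 RPKM against 0.26, 0.265 and 0.243 RPKM. The groups did not overlap, and the 3 knockdown values lay close together. The log2 difference of BIRC3 was -1.26 (SE 0.15, adjusted p by edgeR 1.2e-08), a level 2.4-fold lower. BIRC2, its paralog and neighbour on chromosome 11, encodes cIAP1 and was named here after its values were seen. BIRC2 also fell, from 4.32 ± 0.175 to 3.21 ± 0.352 RPKM (SD, n = 3). Its TMM-scaled log2 difference was -0.31 (SE 0.08, adjusted p by edgeR 9e-04). Of the 50-base windows of the BIRC3 transcript, 1.29% were also found in transcripts of other genes, BIRC2 among them.

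NFKB2 (chromosome 10, 102394110 to 102402529) encodes p100, the precursor of p52 and the inhibitor of the non-canonical arm. Its 627, 571 and 631 counts in shCtrl stood against 488, 445 and 476 in shRBM39, or 7.16, 6.3 and 7.24 RPKM against 5.33, 5.5 and 5.25 RPKM. The groups were apart, and the fall was small. Its log2 difference was -0.24 (SE 0.06, adjusted p by edgeR 0.00117), and it was -0.36 when libraries were scaled by their totals alone.

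RELA (chromosome 11, 65653596 to 65663094) had 3398, 3888 and 3538 counts in shCtrl and 3199, 2835 and 3063 in shRBM39, which is 31.8, 35.2 and 33.3 RPKM against 28.7, 28.8 and 27.7 RPKM. The most abundant of the 10 genes was thus slightly lower in shRBM39, with no overlap. Its log2 difference was -0.11 (SE 0.04, adjusted p by edgeR 0.0122), and it lost its call without shCtrl replicate 2, at -0.08. Scaling by library totals alone, as in RPKM, gave -0.24; that scaling moved the median of all tested genes from -0.01 to -0.14. With log2 RPKM as input, limma gave -0.23 and -0.24.

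The other subunit genes and the main IkB inhibitor did not pass the test. NFKB1 (chromosome 4, 102501329 to 102617302), which encodes p105 and p50, had 286, 313 and 280 counts in shCtrl and 267, 275 and 248 in shRBM39, a log2 difference of -0.02 with a 95% interval from -0.18 to 0.14. RELB (chromosome 19, 45001430 to 45038198), the partner of p52 in the non-canonical arm, had 73, 64 and 74 counts against 64, 54 and 76, a log2 difference of 0.01 with an interval from -0.28 to 0.31. The groups overlapped for both genes, and the sign of each small difference changed under several alternatives, so it gives no direction. NFKBIA (chromosome 14, 35401511 to 35404749) encodes IkB-alpha, the inhibitor that NF-kB restores after activation, and is among the quickest NF-kB targets. It had 409, 417 and 372 counts in shCtrl and 395, 376 and 419 in shRBM39, or 8.82, 8.69 and 8.07 RPKM against 8.15, 8.78 and 8.73 RPKM. Its log2 difference was 0.13 with an interval from -0.01 to 0.26 (edgeR adjusted p 0.105), and the groups overlapped.

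The 3 chemokine genes had few counts in both groups, at most 25 per library. CXCL8 (chromosome 4, 73740506 to 73743716), the gene of interleukin-8, had 22, 20 and 20 counts in shCtrl and 18, 25 and 24 in shRBM39. The groups overlapped, and the log2 difference was 0.25 with an interval from -0.26 to 0.75 (edgeR adjusted p 0.424). CXCL1 (chromosome 4, 73869393 to 73871242), a ligand of the receptor CXCR2, had 2, 9 and 10 counts in shCtrl and 12, 9 and 14 in shRBM39. Scaled to CPM (counts relative to library size, with TMM factors) its groups did not overlap, as for 5 of the 9 tested members and 63.3% of all tested genes, but in RPKM they did. Its log2 difference was 0.86 (SE 0.41, adjusted p by edgeR 0.0721). Without shCtrl replicate 3 it was 1.22 and called, and without shCtrl replicate 1, the library with 2 counts, it was 0.45 and not called.

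CXCL2 (chromosome 4, 74097035 to 74099293), another CXCR2 ligand, had 0, 8 and 2 counts in shCtrl and 2, 2 and 1 in shRBM39, 10 counts against 5 in all. The 0 in shCtrl replicate 1 allows up to 3 counts, or 0.149 CPM, and covers counting error only. No difference of CXCL2 was detectable at this depth. Sequence is shared between these genes: of the 50-base windows of the CXCL2 transcript, 10.1% were also found in CXCL1 or CXCL3, and 5.33% of those of CXCL1 in CXCL2 or CXCL3. How reads with several matches were counted is not given in the sources used here, so the split of the few CXCL1 and CXCL2 counts is uncertain, while CXCL8 shared no window.

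**Figure D2:**
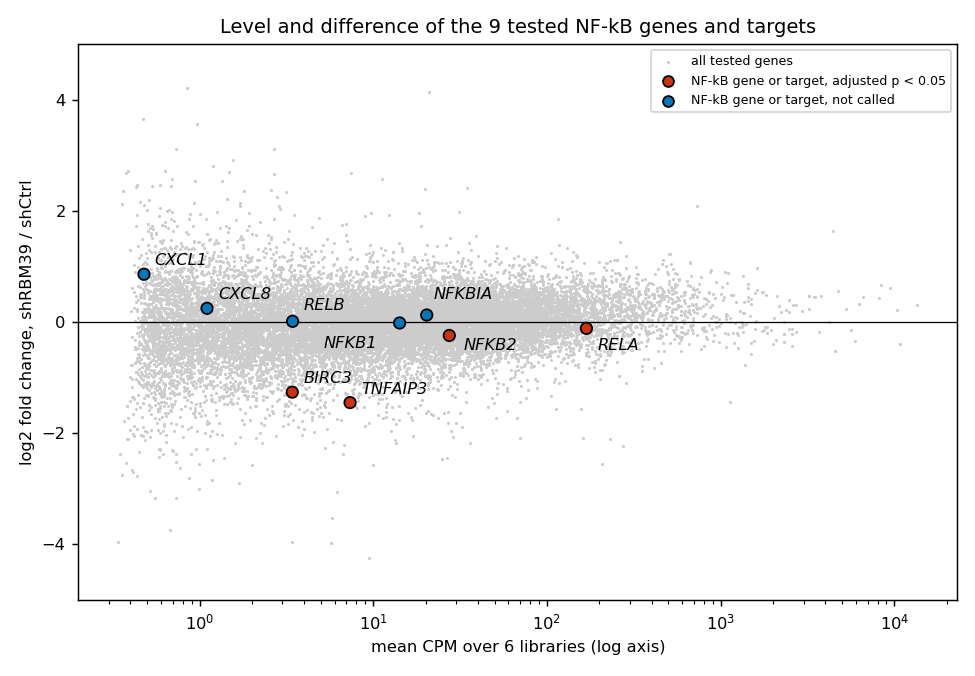
Mean CPM over the 6 libraries (log axis) against log2 difference of shRBM39 over shCtrl for all 18243 tested genes in grey and for the 9 tested NF-kB genes and targets. TNFAIP3 at -1.45 and BIRC3 at -1.26 lie below the others, and CXCL1 and CXCL8 lie at the low end of the axis.

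CXCL1, CXCL2 and CXCL8 belong to a cluster of 9 CXC chemokine genes on chromosome 4. In the cluster, 4 genes (PF4V1, PF4, PPBP and CXCL5) had 0 counts in all libraries, and 4 could be tested (CXCL1, CXCL3, CXCL6 and CXCL8). None of the 4 was called by edgeR or DESeq2. Over all tested genes, edgeR called 59.1% and DESeq2 called 9081 of 18243. By edgeR, 2 of the 4 (CXCL1 and CXCL6) had an unadjusted p under 0.05. CXCL6 had 26, 45 and 36 counts in shCtrl and 40, 42 and 48 in shRBM39. Its TMM-scaled log2 difference was 0.42 (SE 0.2, adjusted p by edgeR 0.0744). CXCL3 had 22, 29 and 11 counts against 11, 14 and 15, with a TMM-scaled log2 difference of -0.49 (SE 0.32, adjusted p by edgeR 0.185). The cluster as a whole was summed at 1.69 to 2.71 RPKM in shCtrl and 2.05 to 2.51 RPKM in shRBM39, ranges that overlapped.

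The remaining genes of the pathway were taken from lists by role, 90 genes besides the 10. Of these, 64 could be tested and 40 were called, 18 higher and 22 lower in shRBM39, beside 59.1% over all tested genes. With scaling by library totals alone the split was 13 higher and 32 lower, as all called genes moved from 49.4% higher to 33.9%. The median log2 difference of the 64 was -0.01, as over all tested genes.

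Most of the receptor and ligand genes had few or no counts. Of the 16, 9 were too low to test, and TNF and TLR2, named after their values were seen, had 0 counts in every library. Of the 7 tested, 3 were called, all as higher. Over all tested genes 59.1% were called, 29.2% higher and 29.9% lower. None of the 7 was lower by edgeR, by DESeq2 or at an unadjusted p under 0.05. IL1RAP, the co-receptor of interleukin-1, rose from 0.32 ± 0.00658 to 0.467 ± 0.0785 RPKM (SD, n = 3). Its TMM-scaled log2 difference was 0.66 (SE 0.14, adjusted p by edgeR 0.000113). TNFRSF1A, the main TNF receptor, was higher by 0.22 (SE 0.07, adjusted p by edgeR 0.00478), a call lost when libraries were scaled by totals alone or tested as log2 RPKM, at 0.08 to 0.10, and without shRBM39 replicate 2, at 0.15. TLR4, the receptor for lipopolysaccharide, was named after its values were seen because its mean was under 1 CPM. It had 11, 8 and 6 counts in shCtrl and 28, 22 and 21 in shRBM39. Its TMM-scaled log2 difference was 1.63 (SE 0.32, adjusted p by edgeR 3.86e-05).

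Adaptors and ubiquitin enzymes carry the signal from the receptors to the IkB kinases. All 21 were tested and 14 were called, 4 higher and 10 lower, with a median log2 difference of -0.13. Over all tested genes 59.1% were called, 29.2% higher and 29.9% lower. The share called in either direction was near that background, and whether the split by direction differs from it was not tested. RBCK1, which encodes HOIL-1, a subunit of the linear ubiquitin assembly complex LUBAC, had the largest fall of the list, from 31.9, 31.5 and 30.9 RPKM to 11.9, 13.1 and 13.1 RPKM. Its log2 difference was -1.19 (SE 0.04, adjusted p by edgeR 1.19e-21). The other LUBAC genes, named here as its partners after their values were seen, had log2 differences of -0.12 (RNF31) and -0.06 (SHARPIN) and were not called. IRAK2, a kinase of interleukin-1 and Toll-like receptor signalling, also fell, by 0.78 on the log2 scale (SE 0.11, adjusted p by edgeR 1.79e-07). Its relative IRAK1 rose from 73.9 ± 1.35 to 96.3 ± 2.2 RPKM (SD, n = 3). The TMM-scaled log2 difference of IRAK1 was 0.50 (SE 0.04, adjusted p by edgeR 4.42e-14). Scaling by library totals alone, as in RPKM, gave 0.38. The TNF receptor adaptor TRAF2 rose by 0.44 on the TMM-scaled log2 scale (SE 0.06, adjusted p by edgeR 1.46e-07).

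Among the genes of the IkB kinase complex, IKBKG and CHUK were called higher and IKBKB lower, the last with a call that depended on the processing. Of 6 kinase-related genes, 3 were called higher and 1 lower. Over all tested genes 59.1% were called, 29.2% higher and 29.9% lower. The share called in either direction was near that background, and the split by direction was not tested against it. IKBKG, the regulatory subunit NEMO, rose from 23 ± 1.17 to 28.6 ± 0.46 RPKM (SD, n = 3). Its TMM-scaled log2 difference was 0.43 (SE 0.04, adjusted p by edgeR 1.76e-10). IKBKG has a near-identical pseudogene copy, so its reads are uncertain. CHUK, the catalytic subunit IKK-alpha, rose by 0.37 (SE 0.07, adjusted p by edgeR 1.18e-05). IKBKB, the catalytic subunit IKK-beta, fell by 0.21 on the log2 scale (SE 0.05, adjusted p by edgeR 0.000716), and was not called after a correction for GC content and gene length, at -0.09.

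Among REL, the other IkB proteins and further inhibitors, 11 were tested and 6 called, 3 higher and 3 lower. These shares were near the background over all tested genes, with 59.1% called, 29.2% higher and 29.9% lower. BCL3, an atypical IkB protein that works with p50 and p52 in the nucleus, had 48, 50 and 61 counts in shCtrl and 19, 16 and 23 in shRBM39, with no overlap. Its log2 difference was -1.31 (SE 0.22, adjusted p by edgeR 2.85e-06). TNIP1, the partner through which A20 is brought to NEMO, fell from 29.8, 30.1 and 31.8 RPKM to 18.3, 19.9 and 18.3 RPKM. Its TMM-scaled log2 difference was -0.57 (SE 0.04, adjusted p by edgeR 3.99e-14). NFKBIB, which encodes IkB-beta, rose by 0.47 (SE 0.05, adjusted p by edgeR 9.8e-10). NFKBID, a nuclear IkB protein, was called as higher at 0.69 (SE 0.23, adjusted p by edgeR 0.01), with 18, 49 and 32 counts against 58, 33 and 55 and groups that overlapped. It lost its call without shCtrl replicate 1, at 0.42, without shRBM39 replicate 1, at 0.58, and when log2 RPKM was tested, at 0.23 and 0.54. Without shCtrl replicate 2 it was 1.07.

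Of 31 further target genes, 18 were tested and 12 called, 4 higher and 8 lower, with a median log2 difference of -0.28. Over all tested genes 59.1% were called, 29.2% higher and 29.9% lower, with a median of -0.01. Whether the list differs from that background was not tested. Inflammatory products such as IL6, CCL2, CXCL10, PTGS2 and VCAM1 were among the 8 with 0 counts in every library, and those 5 were chosen for naming after their values were seen. TRAF1, an adaptor raised by NF-kB, fell from 0.915 ± 0.0492 to 0.522 ± 0.0649 RPKM (SD, n = 3). Its TMM-scaled log2 difference was -0.69 (SE 0.13, adjusted p by edgeR 3.87e-05). SDC4, a cell-surface proteoglycan, fell by 0.64 on the log2 scale (SE 0.08, adjusted p by edgeR 2.46e-08). ICAM1, an adhesion molecule for leukocytes, went the other way, with 22, 20 and 18 counts in shCtrl and 37, 36 and 39 in shRBM39. Its TMM-scaled log2 difference was 1.03 (SE 0.23, adjusted p by edgeR 0.000189). PLAU, the urokinase gene, rose by 0.63 (SE 0.13, adjusted p by edgeR 6.84e-05). Of 5 chemokine receptors only CXCR4 could be tested, named here after its values were seen, with 8, 8 and 10 counts against 14, 15 and 13. Its TMM-scaled log2 difference was 0.82 (SE 0.34, adjusted p by edgeR 0.0405).

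**Figure D3:**
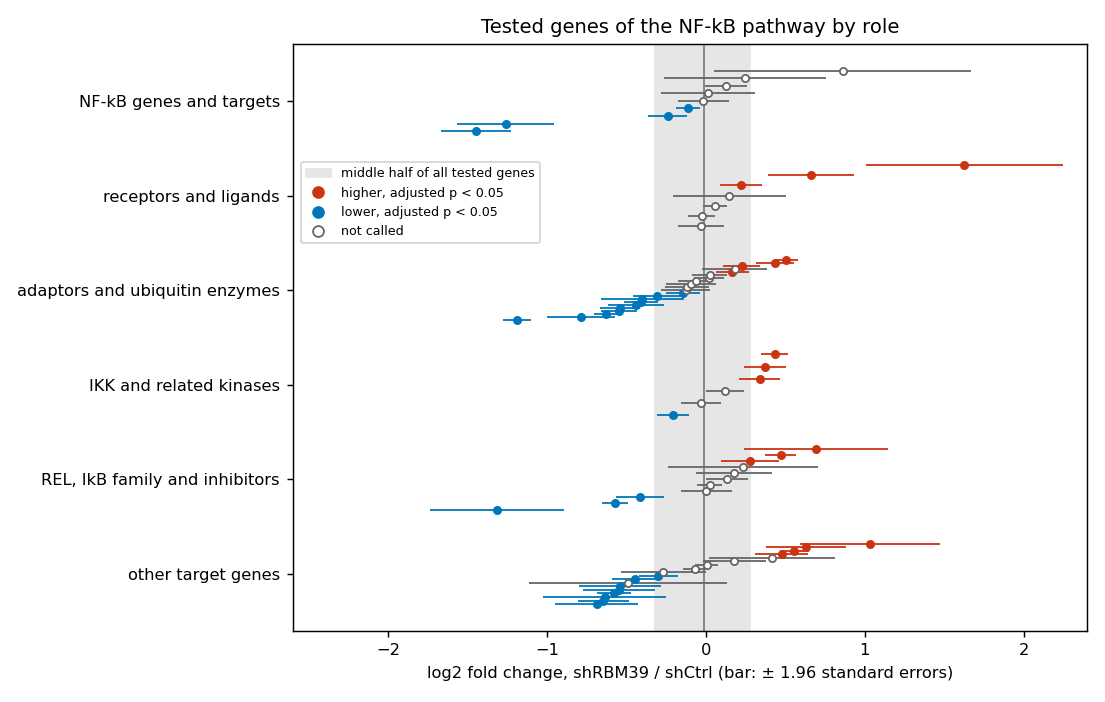
Log2 difference of shRBM39 over shCtrl (horizontal axis, bars are 95% intervals) for tested genes of 6 lists by role, the 9 NF-kB genes and targets at the top; filled points passed an adjusted p of 0.05 and the grey band runs between the quartiles of all tested genes. Higher and lower genes stand in each plotted list except the top one, with 4 lower genes, and the receptors and ligands, with 3 higher genes.

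Splicing was examined in the authors' rMATS records, which name the compared groups as group 1 and group 2 without saying which is the knockdown. The records were selected by the authors for a difference between the groups, so no test was made. None of the 1582 records belonged to the 10 genes. Of all listed genes, 6 had a record (OTULIN, RIPK2, TNFSF12, TNIP1, TRADD and TRAF3), 8 records in all, of which 2 rested on 20 reads or more per library. The TNIP1 record concerns exon 2 of 18 of the canonical transcript (chromosome 5, 151064960 to 151065131, minus strand, GRCh38), 172 bases long with 136 of them coding. From the deposited inclusion and skipping reads, its inclusion level was 0.885, 0.867 and 0.928 in group 1 and 0.801, 0.794 and 0.736 in group 2, on at least 93 reads in each library, and the groups did not overlap. The OTULIN record, a pair of mutually exclusive exons, had levels of 0.562, 0.582 and 0.482 against 0.488, 0.446 and 0.266, which overlapped. The RIPK2 and TRADD records and 1 of the 3 of TRAF3 overlapped as well, and the non-overlapping records of TNFSF12 and TRAF3 had libraries with only 4 and 7 reads.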

How the data were processed

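The members and gene lists were chosen with earlier results of these data known. The deposited files hold the raw counts of each gene symbol, RPKM values and rMATS splicing records, all made by the authors. Per the labels, the processing notes name Trimmomatic 0.36, STAR 2.5.3a, featureCounts of Subread 1.5.1 and edgeR 3.12.1 on GRCh38, without role or order. Whether unique identifiers were collapsed is not given in the sources used here. The deposited RPKM values could be recomputed from the counts, the gene lengths and the library totals to within a relative 5.14e-15. Of the listed genes' exons, 94.8% were identical to a GENCODE 44 exon. The NC columns were taken to hold the shCtrl libraries, since the labels give no other control. The authors' p-values, FDR and inclusion differences in the records were not used.

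The quasi-likelihood test of edgeR 4.0.16 in R 4.3.3 was applied to the counts after filterByExpr and TMM scaling, modelling the group alone, with p-values adjusted by Benjamini-Hochberg across every gene that passed the filter and a threshold of 0.05. The log2 differences carry TMM scaling and RPKM does not, so ratios of the printed RPKM values do not match them exactly. Standard errors were derived from the fold change and its F statistic. Intervals are 95% normal intervals from these errors. Named genes were the 10 members, RBM39, the chemokine cluster, spliced records and, per list, up to 2 highest and 2 lowest called genes averaging 1 CPM or more. Alternatives used DESeq2 1.42.0, limma 3.58.1 and other scalings and filters. Tested on simulated counts for shRBM39 against shCtrl (18243 genes), edgeR recovered 92% of 200 genes changed 2-fold and called 0.0554% of the others. That simulation gave all genes the same dispersion and changed far fewer genes than the 10790 called here. With a trend by GC content added to the simulated shRBM39 counts, edgeR called 50.4% of the unchanged genes without a correction and 0.0443% with it. The false calls in the real data are thus not measured by it.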

Additional observations from a re-analysis of the deposited data

How the results depend on the processing

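In 18 alternatives the direction and call of TNFAIP3, BIRC3, BCL3, ICAM1, IRAK2, RBCK1 and RBM39 stayed the same. A test against an absolute log2 fold change of 0.5 asks for a larger difference and called 2 of the 9 members, 6 of the other pathway genes and 2232 of all genes, in place of 4, 40 and 10790. Leaving out each replicate gave 3 to 5 members, 37 to 40 other pathway genes, 10036 to 10145 genes in all and -0.70 to -0.64 for RBM39. DESeq2 called 4 members, 38 other pathway genes and 9081 genes in all. RELB changed sign, to -0.0195 under upper-quartile scaling, -0.1101 under library totals alone, -0.0621 and -0.1084 on log2(RPKM + 1) and log2(RPKM + 0.1), -0.0038 once GC content and length were corrected for and -0.0111 with the replicate block added, and ranged from -0.0935 to 0.071 with a replicate left out. NFKB1 was 0.026 after that correction, 0.029 with the block added, and -0.11 to 0.0499 with a replicate left out. The cause was not tested. RELA was not called at an adjusted p under 0.01 or after the correction with the block, at -0.08. On log2(RPKM + 1), which shrinks the change of low genes, TNFAIP3 was -0.88, BIRC3 -0.41, BCL3 -0.49, TRAF1 -0.33, ICAM1 0.25, PLAU 0.32, IL1RAP 0.15, CHUK 0.19 and TRAF2 0.28, each still called. IKBKB was -0.33 under library totals alone. Replicates of the same number did not deviate together, with correlations of 0.0061, -0.028 and 0.00011 over 18243 genes, and the replicate block gave 4 members, 39 other pathway genes and 10810 genes in all. CXCL1 could not be tested with at least 10 counts asked of every library, and CXCL2, tested only with no filter on low counts, was -0.81 (adjusted p by edgeR 0.533). The chemokine genes had too few counts for their differences to be bounded closely.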

Other observations

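The following genes of the pathway lists were named after their values were seen, and stand for no group. TAB2 and TAB3, whose proteins bring TAK1 to ubiquitin chains, fell by 0.41 and 0.54 on the log2 scale (standard errors 0.05 and 0.06), while MAP3K7, which encodes TAK1, and TAB1 differed by 0.02 each and did not pass the test. The receptor adaptor TRAF6, at 0.18, was not called, and RIPK1, a kinase at TNF receptors, rose by 0.17 (standard error 0.05). The caspase inhibitor XIAP fell by 0.55 and CFLAR, which encodes the death-receptor inhibitor FLIP, by 0.30 (standard errors 0.06 and 0.06). REL, the subunit gene outside the 10, fell by 0.42 (standard error 0.08), and IRF1, a transcription factor raised by NF-kB and interferon, by 0.58 (standard error 0.06). SOD2, the mitochondrial superoxide dismutase, rose by 0.56 (standard error 0.05). All those described as fallen or risen passed the edgeR threshold of 0.05.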
